A study of Mus musculus with 12 samples.

Results

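The 10 genes described here encode the subunits of Polycomb repressive complex 2 (PRC2) that mouse embryonic stem cells are known for. They are the rows named Ezh2, Ezh1, Eed, Suz12, Jarid2, Mtf2, Phf19, Aebp2, Rbbp4 and Rbbp7 among 24421 gene rows in a table of read counts, and were chosen by name and not by their values. All 10 passed the filter on low counts, which kept 15281 genes. Polyadenylated RNA was counted in 12 libraries of E14 cells, a mouse embryonic stem cell line, in 4 groups of 3 samples. KO paused cells lacked Mettl3, the enzyme that places N6-methyladenosine on messenger RNA, and had been held for 2 weeks with 200 nM INK128, an inhibitor of the growth kinase mTOR. WT paused cells were wild type and had the same treatment. KO FBS and WT FBS cells had the same genotypes and grew for 2 weeks in serum with LIF without the inhibitor. All groups grew on gelatin. The labels name the KO by its genotype alone and do not say how many clones stand behind it, which part of Mettl3 was targeted, or whether replicates were separate cultures, so p-values measure the spread between these samples, which may be technical.

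PRC2 places methyl groups on lysine 27 of histone H3, the mark H3K27me3 that keeps developmental genes silent. Ezh2 or Ezh1 is the catalytic subunit and works with Eed, which binds the mark and stimulates the enzyme, with Suz12, the scaffold, and with the histone chaperones Rbbp4 or Rbbp7. A core joined by Mtf2 or Phf19 is called PRC2.1, and a core joined by Jarid2 and Aebp2 is called PRC2.2. In embryonic stem cells the complex is best known for holding lineage genes silent in a state from which they can still be turned on.

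Library depth ran from 19501717 to 29793338 total counts in KO paused, 10615548 to 22780103 in WT paused, 24978409 to 28705195 in KO FBS and 12027770 to 39566713 in WT FBS cells. WT FBS replicate 1 stood apart: 2541 of 15281 genes differed there by more than 2-fold from the mean of the other 2 libraries, against at most 644 in any other library, and the counts of calls among the 10 genes are given with and without it. Mettl3 averaged 30.1 ± 1.31 TMM-scaled CPM, counts scaled to library size, in KO paused, 35.9 ± 2.85 in WT paused, 27.2 ± 1.61 in KO FBS and 33.9 ± 3.17 in WT FBS cells (SD, n = 3 each). Its RNA was lower in KO FBS (log2 −0.32 ± 0.10, edgeR adjusted p = 0.0134) and in KO paused cells (−0.25 ± 0.10, adjusted p = 0.0467), but counts over the whole gene are a weak check of the labels. Of Y-linked RNA, Uty, Kdm5d, Eif2s3y and Ddx3y had 593 to 3124 counts per library in KO and 0 to 7 in WT cells, so a genotype difference below is also a difference between cells with and without Y-linked RNA. The 8 markers of pluripotent cells summed to 2472 to 2729 CPM in KO paused, 3988 to 4407 in WT paused, 1956 to 2345 in KO FBS and 3313 to 3882 in WT FBS cells. The 6 trophoblast markers summed to 20.4 to 23.0 CPM in KO paused, 7.63 to 8.76 in WT paused, 128 to 188 in KO FBS and 11.9 to 17.9 in WT FBS cells, and the 8 markers of extraembryonic endoderm to 258 to 262, 111 to 143, 218 to 225 and 215 to 311 CPM in that order of groups. The 7 fibroblast markers summed to 5.54 to 7.40 CPM in KO paused and 2.53 to 3.51 in WT paused cells, with Postn at 0 in all WT paused libraries. In KO FBS cells they summed to 16.2 to 20.5 CPM and in WT FBS cells to 6.07 to 9.28. The 6 neural markers summed to 196 to 224 CPM in KO paused, 215 to 269 in WT paused, 117 to 146 in KO FBS and 76.8 to 143 in WT FBS cells. Single markers could go against their sum. Of the 8 endoderm markers, 1 was higher and 4 lower in KO paused against KO FBS cells (edgeR adjusted p under 0.05). Between KO paused and WT paused cells 2 were higher and 3 lower, and 1 and 5 between KO FBS and WT FBS cells. Shares of all genes higher and lower were 23.3% and 19.4%, 27.9% and 23.9%, and 28.4% and 29.4%. Of 5 neural markers tested, 3 were higher and 2 lower in KO paused against WT paused cells. The part of these marker differences in the results below was not tested, and fewer cells of a type cannot be told apart from less RNA per cell.

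The promoters of both catalytic genes and of the core genes Eed and Suz12 are shown to set Ezh2 and Eed, which were lower in KO cells relative to the typical gene, beside their partners. Each window holds 300 bases, from 250 before to 50 after the RefSeq start on GRCm38.p6. Capitals mark matches on either strand to CCAAT, the letters of the NF-Y box, or to an E2F motif spelled TTTCCCGC, TTTCGCGC, TTTGCCGC or TTTGGCGC.
Ezh2, chr6:47594981-47595280, minus strand: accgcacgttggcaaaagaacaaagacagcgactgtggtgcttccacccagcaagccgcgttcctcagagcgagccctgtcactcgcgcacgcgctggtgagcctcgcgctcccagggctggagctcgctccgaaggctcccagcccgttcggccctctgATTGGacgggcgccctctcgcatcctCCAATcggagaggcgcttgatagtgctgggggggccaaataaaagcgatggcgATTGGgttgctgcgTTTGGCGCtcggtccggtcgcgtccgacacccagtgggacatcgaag
Ezh1, chr11:101226414-101226713, minus strand: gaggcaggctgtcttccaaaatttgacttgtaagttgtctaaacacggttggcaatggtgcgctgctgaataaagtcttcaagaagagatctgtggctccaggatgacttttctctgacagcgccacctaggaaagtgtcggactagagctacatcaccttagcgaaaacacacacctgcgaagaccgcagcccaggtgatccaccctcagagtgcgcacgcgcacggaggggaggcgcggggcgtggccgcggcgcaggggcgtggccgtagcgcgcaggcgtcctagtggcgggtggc
Eed, chr7:89980927-89981226, minus strand: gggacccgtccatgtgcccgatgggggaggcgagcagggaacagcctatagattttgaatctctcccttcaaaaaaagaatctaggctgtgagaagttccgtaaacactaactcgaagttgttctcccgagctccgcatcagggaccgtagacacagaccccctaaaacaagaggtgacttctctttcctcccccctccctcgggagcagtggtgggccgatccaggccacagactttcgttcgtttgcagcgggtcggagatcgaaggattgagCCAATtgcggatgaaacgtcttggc
Suz12, chr11:79992856-79993155, plus strand: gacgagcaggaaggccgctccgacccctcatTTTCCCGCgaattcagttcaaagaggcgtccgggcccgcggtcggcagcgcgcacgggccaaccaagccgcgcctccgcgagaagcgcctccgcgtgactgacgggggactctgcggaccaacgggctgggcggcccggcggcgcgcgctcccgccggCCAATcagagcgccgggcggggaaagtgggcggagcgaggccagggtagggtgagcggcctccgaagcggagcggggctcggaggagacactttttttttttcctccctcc
The Ezh2 window holds an E2F match at bases 4 to 11 after the start and 3 CCAAT matches. The Suz12 window holds an E2F match from 219 to 212 bases before the start and 1 CCAAT match. The Eed window holds 1 CCAAT match, after the start, and no E2F match, and the Ezh1 window holds neither. Over 32851 promoter windows of the same length, 2.26% held an E2F match and 37.4% a CCAAT match. The full NRF1 palindrome, present in 0.971% of windows, was in none of the 14 windows of the 10 genes. Outside these 4 genes an E2F match was found in the Phf19 window only.

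By mean level per kilobase of exon, Jarid2, Rbbp7, Mtf2 and Suz12 held the 4 highest places in every group. The highest mean in KO paused cells was that of Jarid2, at 71.0 ± 4.01 CPM per kb, with Rbbp7 next at 68.1 ± 0.481 (SD, n = 3 each). Rbbp7 led in the other 3 groups, at 61.9 ± 1.26 CPM per kb in WT paused, 72.3 ± 4.13 in KO FBS and 82.1 ± 19.8 in WT FBS cells. In WT paused cells the next 3, Suz12, Jarid2 and Mtf2, stood at 57.7 ± 2.58, 53.7 ± 4.19 and 53.7 ± 4.58 CPM per kb, within each other's spread. Below them came Eed, Rbbp4, Ezh2 and Aebp2 in this order of means in all 4 groups. In WT FBS cells Jarid2 (59.3 ± 10.0 CPM per kb) and Eed (59.2 ± 4.33) did not differ beyond their spread, and Eed was the higher in 2 of 3 libraries. Ezh1 was ninth in every group, at 5.00 ± 0.166 CPM per kb in KO paused, 3.58 ± 0.304 in WT paused, 4.88 ± 0.0762 in KO FBS and 3.35 ± 1.79 in WT FBS cells. Phf19 was last in every group, with 1.85 ± 0.0861, 1.96 ± 0.491, 1.67 ± 0.236 and 2.48 ± 0.682 CPM per kb in the same order of groups. The lengths are those of all annotated exons and not of the isoforms in use.

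**Figure D1:**
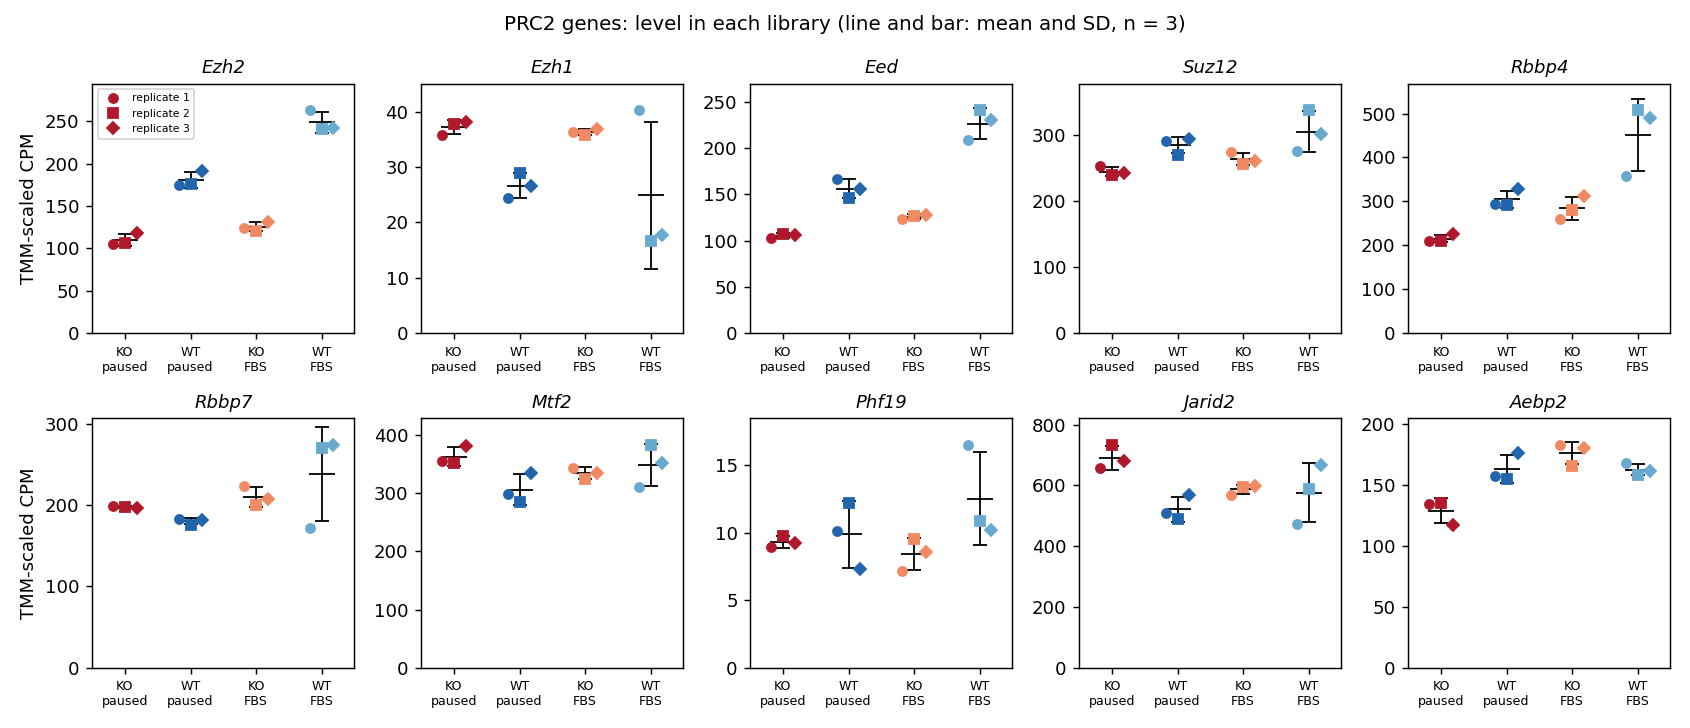
TMM-scaled CPM (y axis, from 0) of the 10 PRC2 genes in each of 12 libraries, by group (x axis); symbols mark replicates 1 to 3, and lines with bars the mean and SD of 3 libraries. Ezh2 and Eed were lower in every KO than in every WT library of the same condition, and Ezh1 in WT FBS replicate 1 stood at 40.3 CPM against 16.7 and 17.7 in the other replicates.

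Relative to the typical gene, Ezh2, Eed and Rbbp4 were lower in KO than in WT cells in both conditions. In KO FBS against WT FBS cells, 5 of the 10 genes were lower and 0 higher relative to the typical gene by edgeR's quasi-likelihood test (adjusted p under 0.05), where 29.4% of all genes tested were lower and 28.4% higher. Their median log2 fold change was −0.20, against −0.04 over all genes. In KO paused against WT paused cells, 5 were lower and 2 higher, where 23.9% of all genes were lower and 27.9% higher, and the medians were −0.14 for the 10 genes and 0.01 for all genes. Ezh2, Eed, Rbbp4 and Suz12 were called lower in both conditions, and Phf19 in FBS and Aebp2 in paused cells made up the 5. The 2 higher were Jarid2 and Mtf2.

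On pausing, Eed and Rbbp4 were lower relative to the typical gene in both genotypes. In WT paused against WT FBS cells, 4 were lower and 0 higher, where 20.2% of all genes were lower and 18% higher, and the medians were −0.26 and −0.02. In KO paused against KO FBS cells, 3 were lower and 0 higher, where 19.4% of all genes were lower and 23.3% higher, and the medians were −0.10 and 0.03. Replicates did not overlap for 9 of the 10 genes in KO paused against WT paused cells and for 5 in KO FBS against WT FBS cells, where 69.1% and 58.6% of all genes did not overlap. They did not overlap for 8 genes in KO paused against KO FBS cells and for 3 in WT paused against WT FBS cells, where the shares of all genes were 65.6% and 39.3%. Comparisons that share a group of libraries are not independent of each other.

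**Figure D2:**
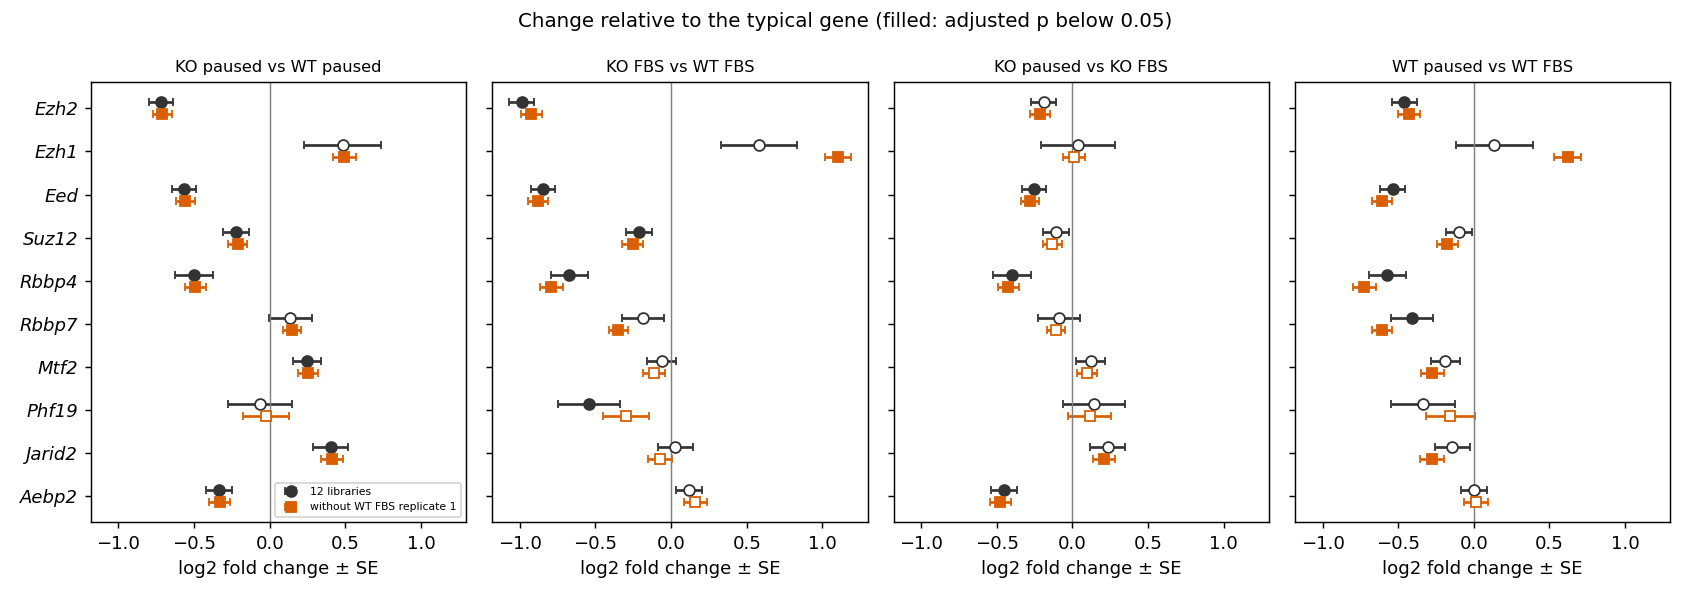
Log2 fold change ± SE (x axis) of each PRC2 gene (y axis) relative to the typical gene in 4 comparisons, with all 12 libraries (circles) and without WT FBS replicate 1 (squares); filled symbols have an edgeR adjusted p below 0.05. Ezh1 in KO FBS against WT FBS cells stood at 0.58 with all libraries and at 1.10 without that replicate.

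Ezh2, the main catalytic subunit of dividing cells, had 105, 106 and 118 CPM in KO paused, 175, 176 and 192 in WT paused, 124, 121 and 131 in KO FBS, and 263, 241 and 242 in WT FBS cells. Every KO library lay below every WT library. Its log2 fold change was −0.99 ± 0.08 (edgeR adjusted p = 8.59e-07) in KO FBS against WT FBS cells and −0.72 ± 0.08 (adjusted p = 1.42e-05) in KO paused against WT paused cells. In WT cells pausing gave −0.46 ± 0.08 (adjusted p = 0.00116). The KO value was −0.19 ± 0.08 and missed the threshold (edgeR adjusted p = 0.0765), although the replicates did not overlap, and 5 of 17 alternative settings called it, with adjusted p from 0.00674 to 0.224 over all of them. The difference between the pausing effects, 0.27 ± 0.12, did not pass (edgeR adjusted p = 0.128).

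Ezh1, the other catalytic subunit, which is known for its presence in non-dividing cells, had 35.8, 37.7 and 38.1 CPM in KO paused, 24.4, 29.0 and 26.5 in WT paused, 36.3, 35.8 and 36.9 in KO FBS, and 40.3, 16.7 and 17.7 in WT FBS cells. WT FBS replicate 1 was the highest of all 12 libraries and replicates 2 and 3 of that group were the lowest. With all libraries Ezh1 was called in none of the relative comparisons: the log2 fold change was 0.58 ± 0.25 (edgeR adjusted p = 0.0631) in KO FBS against WT FBS cells and 0.48 ± 0.25 (adjusted p = 0.128) in KO paused against WT paused cells, where the replicates did not overlap. Without WT FBS replicate 1 it was higher in KO in both, by 1.10 ± 0.08 (edgeR adjusted p = 2.64e-10) and 0.49 ± 0.08 (adjusted p = 9.23e-06). That replicate is not in the paused comparison, whose SE rests on the spread of all groups. The fit of only the 2 paused groups also called Ezh1 (0.48 ± 0.08, edgeR adjusted p = 5.63e-05). Without WT FBS replicate 1, pausing gave 0.62 ± 0.09 in WT cells (edgeR adjusted p = 4.14e-06), against 0.14 ± 0.26 (adjusted p = 0.704) with it. In KO cells the value was 0.03 ± 0.25 with that replicate and 0.01 ± 0.07 without it (edgeR adjusted p = 0.922 and 0.903).

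Eed, the subunit that reads the methylated histone, had 103, 108 and 106 CPM in KO paused, 167, 146 and 156 in WT paused, 123, 126 and 128 in KO FBS, and 208, 241 and 230.4 in WT FBS cells. As for Ezh2, all KO libraries lay below all WT libraries. The log2 fold change was −0.85 ± 0.08 (edgeR adjusted p = 2.56e-06) in KO FBS against WT FBS and −0.57 ± 0.08 (adjusted p = 8.38e-05) in KO paused against WT paused cells. Eed fell on pausing in WT cells (−0.54 ± 0.08, edgeR adjusted p = 0.000392) and in KO cells (−0.26 ± 0.08, adjusted p = 0.0214). The KO call was lost without KO paused replicate 1, 2 or 3 or KO FBS replicate 2 or 3 (edgeR adjusted p from 0.0521 to 0.0771).

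Suz12, the scaffold, spanned 0.49 on the log2 scale over all 12 libraries, against 1.32 for Ezh2 and 1.23 for Eed. It had 253, 240.1 and 242 CPM in KO paused, 292, 271 and 294 in WT paused, 274, 256 and 261 in KO FBS, and 276, 338 and 302 in WT FBS cells. KO libraries lay below WT libraries in each condition, by a small margin. The log2 fold change was −0.21 ± 0.09 (edgeR adjusted p = 0.0497) in KO FBS against WT FBS and −0.22 ± 0.09 (adjusted p = 0.0466) in KO paused against WT paused cells. These calls sat at the threshold: 14 and 11 of 17 alternative settings lost them, with edgeR or DESeq2 adjusted p up to 0.207 and 0.141. Pausing gave −0.10 ± 0.09 in WT and −0.11 ± 0.09 in KO cells (edgeR adjusted p = 0.384 and 0.331), and the WT value was −0.18 ± 0.07 and called without WT FBS replicate 1 (adjusted p = 0.0335).

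Rbbp4, a histone chaperone that PRC2 shares with deacetylase and chromatin assembly complexes, had 211, 209.7 and 225 CPM in KO paused, 294, 292 and 327 in WT paused, 260.3, 280.0 and 311 in KO FBS, and 358, 507 and 491 in WT FBS cells. It was lower in KO cells by −0.67 ± 0.12 in FBS (log2, edgeR adjusted p = 0.000525) and −0.50 ± 0.12 when paused (adjusted p = 0.00455), and the replicates did not overlap. It also fell on pausing, by −0.57 ± 0.12 in WT (edgeR adjusted p = 0.00373) and −0.40 ± 0.12 in KO cells (adjusted p = 0.0199). The KO pausing call was lost without KO paused replicate 1 or 2 or KO FBS replicate 3 (edgeR adjusted p from 0.0634 to 0.0864).

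Rbbp7, the close relative of Rbbp4, was called in neither genotype comparison. It had 199.6, 198 and 197 CPM in KO paused, 183, 176 and 182 in WT paused, 223, 199.7 and 208 in KO FBS, and 172, 270.3 and 274 in WT FBS cells. WT FBS replicate 1 was the lowest library of its group by a wide margin. Rbbp7 fell on pausing in WT cells (log2 −0.41 ± 0.14, edgeR adjusted p = 0.0365), a call that 11 of 17 alternative settings lost (adjusted p up to 0.149), and it stood at −0.61 ± 0.07 without WT FBS replicate 1 (adjusted p = 9.53e-08). The genotype values were −0.18 ± 0.14 in FBS and 0.14 ± 0.14 in paused cells (edgeR adjusted p = 0.274 and 0.436). Without that replicate both were called, at −0.35 ± 0.07 and 0.15 ± 0.06 (edgeR adjusted p = 7.12e-05 and 0.036).

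Mtf2, the PRC2.1 subunit that binds unmethylated CpG-rich DNA, had 355, 352 and 381 CPM in KO paused, 299, 284 and 335 in WT paused, 344, 324 and 334 in KO FBS, and 311, 382 and 352 in WT FBS cells. It was higher in KO paused than in WT paused cells (log2 0.25 ± 0.09, edgeR adjusted p = 0.0439), with no overlap of replicates, and 10 of 17 alternative settings lost this call (adjusted p up to 0.156). In FBS the genotype value was −0.06 ± 0.09 (edgeR adjusted p = 0.591). Pausing gave −0.19 ± 0.09 in WT and 0.12 ± 0.09 in KO cells (edgeR adjusted p = 0.132 and 0.327), and the WT value was −0.27 ± 0.07 and called without WT FBS replicate 1 (adjusted p = 0.00341).

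Phf19, the other PRC2.1 subunit here, was the scarcest of the 10 genes, at 104 to 381 counts per library. It had 8.91, 9.77 and 9.23 CPM in KO paused, 10.1, 12.2 and 7.27 in WT paused, 7.17, 9.54 and 8.56 in KO FBS, and 16.5, 10.9 and 10.2 in WT FBS cells. It was lower in KO FBS than in WT FBS cells (log2 −0.54 ± 0.21, edgeR adjusted p = 0.0383), and the value was −0.30 ± 0.15 without WT FBS replicate 1, its highest library (adjusted p = 0.0891). In all, 7 of 17 alternative settings lost this call (adjusted p up to 0.129), the fit of only these 2 groups (0.0778) and those without KO FBS replicate 1 or 3 (0.129 and 0.0787) among them. The same comparison in paused cells gave −0.06 ± 0.21 (edgeR adjusted p = 0.826), with overlapping replicates.

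Jarid2, the PRC2.2 subunit that helps to recruit the complex and stimulates it, had 657, 733 and 681 CPM in KO paused, 510.4, 488 and 567 in WT paused, 569, 595 and 597 in KO FBS, and 474, 587 and 667 in WT FBS cells. It was higher in KO paused than in WT paused cells (log2 0.40 ± 0.12, edgeR adjusted p = 0.0107) under all 17 alternative settings. In FBS the genotype value was 0.03 ± 0.11 (edgeR adjusted p = 0.855). Pausing gave 0.23 ± 0.11 in KO and −0.14 ± 0.11 in WT cells (edgeR adjusted p = 0.12 and 0.349). Both were called without WT FBS replicate 1, at 0.21 ± 0.07 and −0.28 ± 0.08 (edgeR adjusted p = 0.0163 and 0.00547).

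Aebp2, the partner of Jarid2 in PRC2.2, went the other way in KO paused cells. It had 135, 135 and 117 CPM in KO paused, 158, 155 and 176 in WT paused, 183, 166 and 180.0 in KO FBS, and 168, 158 and 162 in WT FBS cells. The 3 KO paused libraries were the lowest of all 12. Aebp2 fell on pausing in KO cells (log2 −0.45 ± 0.09, edgeR adjusted p = 0.00115) and was lower in KO paused than in WT paused cells (−0.34 ± 0.09, adjusted p = 0.00555), under all 17 alternative settings in both cases. Pausing in WT cells gave 0.00 ± 0.09 (edgeR adjusted p = 0.985) and the genotype value in FBS was 0.12 ± 0.09 (adjusted p = 0.267).

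Whether pausing acts alike in both genotypes was tested as the KO pausing effect minus the WT effect. Aebp2 alone passed, at −0.45 ± 0.12 (edgeR adjusted p = 0.023), where 8.26% of all genes passed in the lower direction and 9.61% in the higher. That call was lost without KO paused replicate 3, WT paused replicate 3 or KO FBS replicate 1 or 3 (edgeR adjusted p from 0.0543 to 0.0654), and per cell the value was −0.16 ± 0.45 (adjusted p = 0.864). Without WT FBS replicate 1, 5 of the 10 genes were higher and 2 lower, where 24.3% and 17.1% of all genes were. The 5 were Eed (0.32 ± 0.09), Jarid2 (0.49 ± 0.11), Mtf2 (0.37 ± 0.10), Rbbp4 (0.30 ± 0.10) and Rbbp7 (0.50 ± 0.09), with edgeR adjusted p from 0.000152 to 0.0251. The 2 lower were Ezh1 (−0.61 ± 0.11, edgeR adjusted p = 0.000238) and Aebp2 (−0.49 ± 0.10, adjusted p = 0.000842). Counts of calls thus changed without this library in every relative comparison. Of the 10 genes, 5 were then lower and 1 higher in KO FBS against WT FBS cells, where 34.3% and 34.3% of all genes were. In KO paused against WT paused cells 5 and 4 were, beside 30.5% and 34.7% of all genes. In KO paused against KO FBS cells 4 and 1 were, beside 29.9% and 29.9%. In WT paused against WT FBS cells 7 and 1 were, beside 31.1% and 27.8%. The library is not in KO paused against WT paused or KO paused against KO FBS cells, where it enters only through the fit that all groups share.

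Ratios between subunits within a library do not depend on the scaling between libraries. The Ezh1 to Ezh2 ratio per kb was 0.306, 0.320 and 0.289 in KO paused, 0.126, 0.148 and 0.124 in WT paused, 0.263, 0.265 and 0.252 in KO FBS, and 0.137, 0.0623 and 0.0656 in WT FBS cells. Every KO library lay above every WT library, WT FBS replicate 1 included. The mean log2 ratio differed by 1.20 between KO paused and WT paused cells and by 1.66 between KO FBS and WT FBS cells. Ezh2 and Eed kept close to each other: their ratio was 0.564 to 0.641 in KO paused, 0.601 to 0.703 in WT paused, 0.549 to 0.587 in KO FBS and 0.573 to 0.723 in WT FBS cells, and the replicates overlapped in all 4 comparisons. Relative to Suz12 both were lower in KO cells. Ezh2 to Suz12 was 0.308 to 0.362 in KO paused against 0.444 to 0.483 in WT paused cells, and 0.334 to 0.372 in KO FBS against 0.528 to 0.704 in WT FBS cells. Eed to Suz12 was 0.526 to 0.578 in KO paused against 0.687 to 0.738 in WT paused cells, and 0.580 to 0.637 in KO FBS against 0.921 to 0.985 in WT FBS cells. The PRC2.2 pair set KO paused cells apart, with a Jarid2 to Aebp2 ratio of 4.95 to 5.90, against 3.19 to 3.28 in WT paused, 3.16 to 3.64 in KO FBS and 2.86 to 4.18 in WT FBS cells. Rbbp7 to Rbbp4 was 2.63 to 2.85 in KO paused against 1.67 to 1.87 in WT paused cells, and 2.01 to 2.58 in KO FBS against 1.45 to 1.68 in WT FBS cells. No test was run on the ratios.

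**Figure D3:**
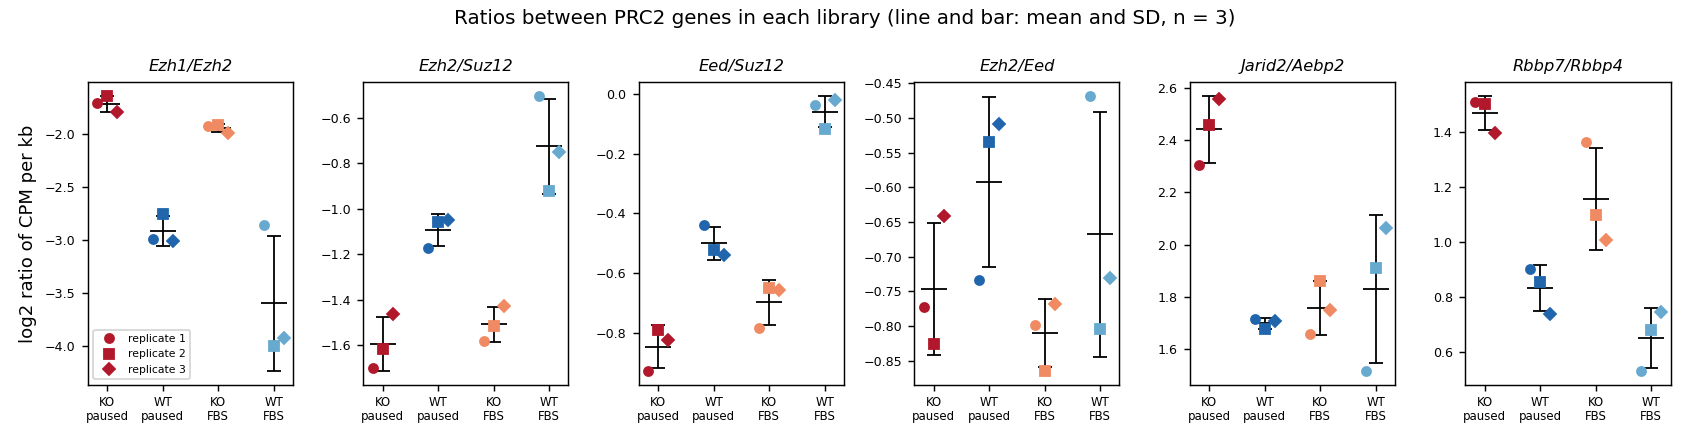
Log2 ratio of CPM per kb (y axis) for 6 pairs of PRC2 genes in each library, by group (x axis); symbols mark replicates 1 to 3, and lines with bars the mean and SD of 3 libraries. Ezh1 over Ezh2 was higher in every KO than in every WT library. Ezh2 over Eed overlapped between genotypes within each condition and between conditions within each genotype.

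Scaled to the ERCC spike-in, which estimates RNA per cell since equal numbers of cells were lysed, pausing lowered PRC2 RNA with that of most genes. All 10 genes were lower in WT paused than in WT FBS cells, where 68.8% of all genes were lower and 1.15% higher. Their median log2 fold change was −1.28, against −1.05 over all genes, and ran from −1.60 for Rbbp4 to −0.89 for Ezh1. Ezh2 averaged 2121 ± 267 spike-in-scaled counts in KO paused, 2688 ± 636 in WT paused, 4068 ± 1325 in KO FBS and 7524 ± 781 in WT FBS cells (SD, n = 3 each), so WT FBS cells stood highest. The Ezh1 fold change was −0.41 without WT FBS replicate 1 and −0.68 without WT paused replicate 1, and was then not called (edgeR adjusted p = 0.293 and 0.091). In KO paused against KO FBS cells 6 were lower, where 45.7% of all genes were lower and 2.45% higher, and the medians were −0.84 and −0.72. The 6 were Ezh2, Eed, Suz12, Aebp2, Rbbp4 and Rbbp7, from −1.19 for Aebp2 to −0.82 for Rbbp7. Aebp2 and Rbbp4 kept this call in all 16 alternative settings, while Rbbp7 lost it in 8, Suz12 in 7, and Ezh2 and Eed in 3 each. Leaving out KO paused replicate 1 or KO FBS replicate 2 was enough to lose these 4 calls (edgeR adjusted p from 0.0586 to 0.143). Between KO FBS and WT FBS cells, with all libraries, only Ezh2 was called among the 10 (−0.89 ± 0.32, edgeR adjusted p = 0.0236), where 9.81% of all genes were lower and 19.1% higher, and 5 of 16 alternative settings lost it (adjusted p up to 0.14). Eed stood at −0.74 ± 0.32 (edgeR adjusted p = 0.0667), and was called with the replicate block (−0.79, adjusted p = 0.00149) and without KO FBS replicate 2 (−1.03, adjusted p = 0.00661). Ezh1 stood at 0.67 ± 0.32 (edgeR adjusted p = 0.108), and was called higher without WT FBS replicate 1 (1.15 ± 0.36, adjusted p = 0.00897), without KO FBS replicate 1 (0.89, adjusted p = 0.00906) and with the block (0.63, adjusted p = 0.0256). Between KO paused and WT paused cells only Ezh1 was called among the 10 (0.85 ± 0.32, edgeR adjusted p = 0.0315), where 27.1% of all genes were higher, 5.62% lower and the median of all genes was 0.39. That call was lost in 6 of 16 settings (adjusted p up to 0.192). Jarid2 stood at 0.79 ± 0.33 and just missed the threshold (edgeR adjusted p = 0.0529), and 6 of 16 settings called it, among them the one without WT FBS replicate 1 (adjusted p = 0.0443) and the block (adjusted p = 0.000779). Ezh2 stood at −0.34 ± 0.32 there (edgeR adjusted p = 0.438), so its lower share of the RNA in KO paused cells was not shown to be fewer copies per cell. The difference between the pausing effects called 0 of the 10 genes with edgeR and with limma, and 0 had an unadjusted edgeR p below 0.05, where 4.7% of all genes were called. Without WT FBS replicate 1 the per-cell counts of the 10 were 9 lower in WT pausing (62.8% of all genes), 7 lower in KO pausing (47.7%), 1 higher and 1 lower in KO FBS against WT FBS (18.2% and 9.01%), 2 higher in KO paused against WT paused cells (28.3%), and 0 in the difference (3.25% higher and 1.92% lower). Any error of the spike-in moves all genes of its library together, so these calls are not independent: the ratio of cellular to ERCC counts ran from 47.4 to 93.5 in KO FBS cells, against 36.5 to 40.3 in KO paused, 29.0 to 37.4 in WT paused and 72.4 to 74.6 in WT FBS cells.

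**Figure D4:**
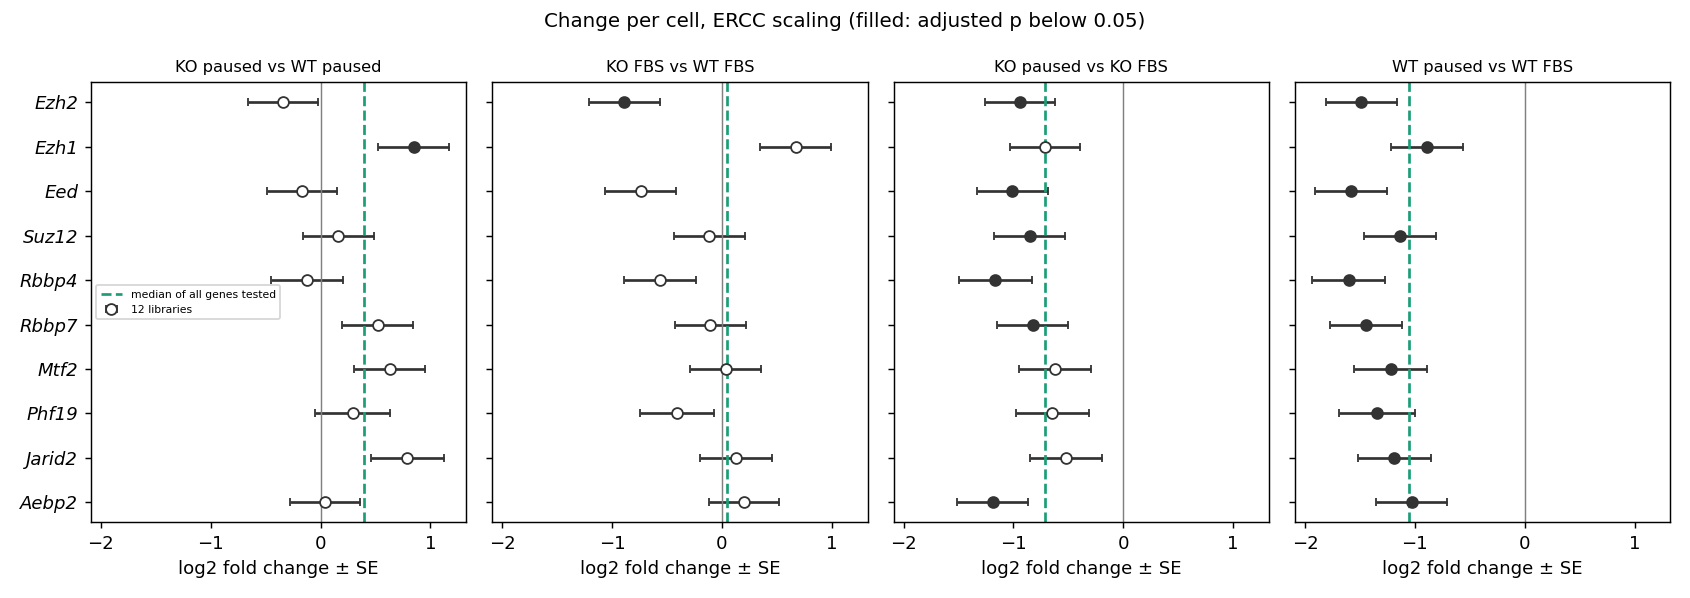
Log2 fold change ± SE (x axis) of each PRC2 gene (y axis) after ERCC scaling in 4 comparisons; filled circles have an edgeR adjusted p below 0.05 and the dashed line is the median of all genes tested. In WT paused against WT FBS cells all 10 genes lay below 0, around the median of all genes at −1.05.

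The genes stand on 8 chromosomes, Ezh2 and Aebp2 on chromosome 6 and Ezh1 and Suz12 on chromosome 11, and each was set beside the 49 tested genes nearest to it. In KO FBS against WT FBS cells the neighbours' median log2 fold change was 0.12 at Ezh2, 0.22 at Eed and 0.15 at Rbbp4, opposite in sign to these genes. At Ezh1 it was 0.37, in the direction of Ezh1 itself, and at Suz12 it was −0.19, close to the −0.21 of Suz12. In KO paused against WT paused cells it was 0.06 at Ezh2, 0.10 at Eed, 0.23 at Rbbp4, 0.13 at Suz12 and 0.01 at Jarid2. At Aebp2 it was −0.10 in that comparison and −0.03 in KO paused against KO FBS cells. For pausing in WT cells it was −0.23 at Rbbp4, in the direction of Rbbp4 itself, −0.04 at Eed, 0.13 at Ezh2 and 0.04 at Rbbp7. For pausing in KO cells it was −0.09 at Rbbp4 and −0.03 at Eed. The part of the neighbourhood in the Ezh1, Suz12 and Rbbp4 values was not tested. Exons of 4 of the genes share bases with a counted gene on the opposite strand, and the strand setting of the counting is not given in the sources used here. Exons of Ezh2, Suz12 and Rbbp4 also share 174, 178 and 796 bases with long noncoding RNA genes on the opposite strand that were not counted. Among the counted partners, E230029C05Rik of Eed averaged at most 0.142 CPM and Sync of Rbbp4 at most 2.43 CPM in any group. Tmed5 of Mtf2 averaged up to 42.0 CPM and was higher in KO paused than in WT paused cells, like Mtf2 (log2 0.40 ± 0.14, edgeR adjusted p = 0.0347). Txlng of Rbbp7 averaged up to 141 CPM and rose on pausing in WT cells (0.49 ± 0.12, adjusted p = 0.00641), where Rbbp7 fell.

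**Figure D5:**
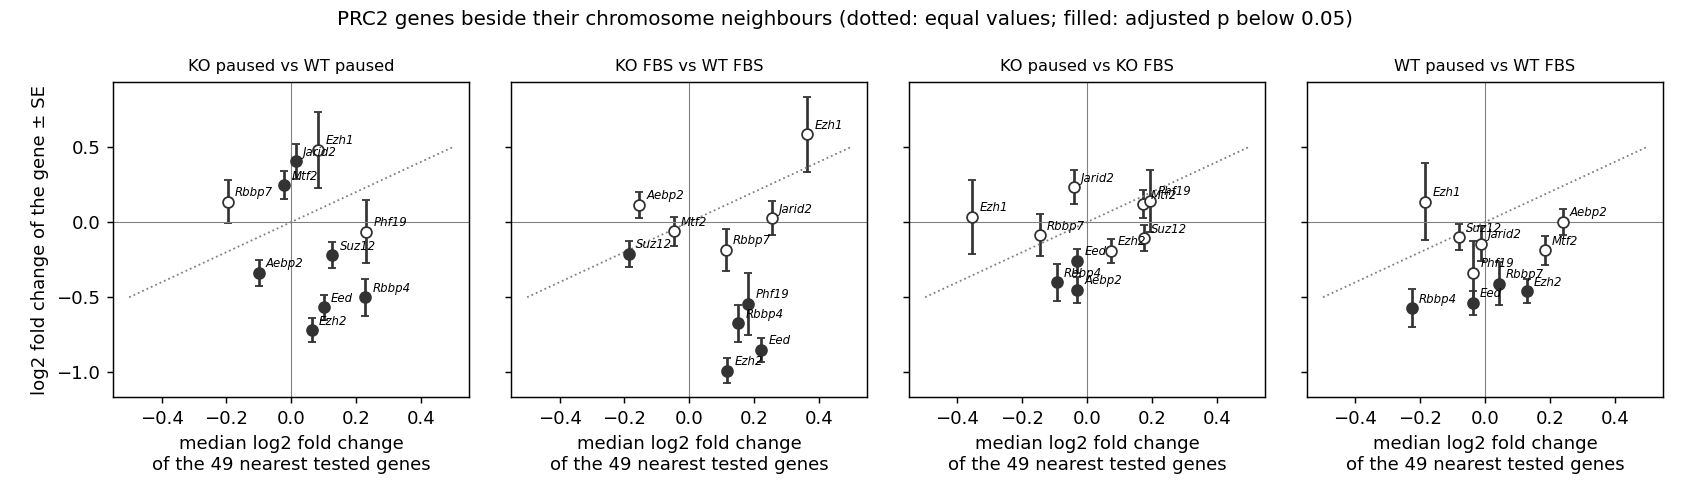
Log2 fold change ± SE of each PRC2 gene relative to the typical gene (y axis) against the median log2 fold change of its 49 nearest tested genes (x axis) in 4 comparisons; filled circles have an edgeR adjusted p below 0.05 and the dotted line marks equal values. Ezh2, Eed and Rbbp4 lay below 0 in KO FBS against WT FBS cells while their neighbours' medians lay above 0.

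By likeness of pattern over the 12 libraries, measured as the root mean square difference of centred log2 CPM among 9997 genes, Eed was 20th from Ezh2 at 0.128, and Ezh2 and Rbbp4 were 38th and 42nd from Eed at 0.128 and 0.129. The 3 genes nearest to Ezh2 were Tmco1 (0.0732), Gemin2 (0.0979) and Vash2 (0.102), and those nearest to Eed were Eif3c (0.0806), Snhg12 (0.0847) and Cpsf3 (0.0850). Those nearest to Suz12 were Btbd10 (0.0481), Smc2 (0.0637) and E2f5 (0.0643). Those nearest to Ezh1 were Tnip1 (0.107), Klf2 (0.126) and Igf2r (0.145), and the nearest PRC2 gene to Ezh1, Jarid2, ranked 2372nd. Ezh1 and Ezh2 were far apart, at ranks of 8051 from Ezh2 and 8463 from Ezh1. These ranks rest on all 12 libraries, WT FBS replicate 1 included, in which Ezh1 stood at 40.3 CPM.

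Counts in the other gene groups below are relative to the typical gene unless given as per cell, and are read against the shares of all genes higher and lower. With all 12 libraries these were 28.4% and 29.4% in KO FBS against WT FBS, 27.9% and 23.9% in KO paused against WT paused, 23.3% and 19.4% in KO paused against KO FBS, and 18% and 20.2% in WT paused against WT FBS cells. Per cell the shares were 19.1% and 9.81%, 27.1% and 5.62%, 2.45% and 45.7%, and 1.15% and 68.8% in that order of comparisons.

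Of 5 other PRC2 accessory genes tested, 3 were higher and 1 lower in KO FBS against WT FBS cells, 2 were higher and 2 lower in KO paused against KO FBS cells, 1 was higher in WT paused against WT FBS cells, and 0 were called in KO paused against WT paused cells by edgeR or DESeq2, or passed an unadjusted p of 0.05 there. Per cell 2 were higher in KO FBS against WT FBS, 0 were called by edgeR in KO paused against WT paused (1 at an unadjusted p below 0.05, and 1 by limma on the deposited values), 2 were lower in KO pausing and 4 were lower in WT pausing. E130012A19Rik, the older symbol of Epop, a PRC2.1 partner, averaged 214 ± 25.9 CPM in KO paused, 231 ± 22.8 in WT paused, 457 ± 69.3 in KO FBS and 199.7 ± 25.3 in WT FBS cells (SD, n = 3 each), so KO FBS cells stood above the other groups. Its log2 fold change was 1.19 ± 0.14 in KO FBS against WT FBS cells (edgeR adjusted p = 1.34e-05) and its difference of pausing effects −1.30 ± 0.19 (adjusted p = 0.000893). AU022751, the older symbol of Ezhip, an inhibitor of the catalytic subunit, was higher in KO FBS than in WT FBS cells (2.41 ± 0.30, edgeR adjusted p = 2.73e-05) from a low level of 1.98 ± 0.272 against 0.317 ± 0.194 CPM. A gene at such a level can pass the filter on low counts only through a group where it is high. Phf1, a relative of Mtf2 and Phf19, was lower in KO FBS than in WT FBS cells (−0.66 ± 0.13, adjusted p = 0.000895) and rose on pausing in KO cells (0.64 ± 0.13, adjusted p = 0.00176).

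Genes of PRC1, the complex that places ubiquitin on histone H2A and binds the PRC2 mark through its Cbx subunits, were called in both directions. Of 29 tested, 11 were higher and 7 lower in KO FBS against WT FBS cells, 10 and 8 in KO paused against WT paused, 9 and 8 in KO paused against KO FBS, and 7 and 6 in WT paused against WT FBS cells. Without WT FBS replicate 1, 10 and 10 were in that last comparison, where 27.8% and 31.1% of all genes were. Per cell 8 were higher and 2 lower in KO FBS against WT FBS cells and 10 and 0 in KO paused against WT paused cells, and 14 were lower in KO pausing and 24 in WT pausing, with 0 higher in both. Cbx7, the main Cbx subunit of embryonic stem cells, was lower in KO FBS than in WT FBS cells (log2 −1.14 ± 0.11, edgeR adjusted p = 2.15e-06) and rose on pausing in KO cells (0.91 ± 0.10, adjusted p = 3.08e-05). Cbx2 was higher in KO cells in FBS (1.00 ± 0.11) and when paused (1.07 ± 0.12, edgeR adjusted p = 1.05e-05 and 8.82e-06). Rnf2, the ubiquitin ligase subunit, was lower in KO paused than in WT paused cells (−0.93 ± 0.13, edgeR adjusted p = 9.48e-05).

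A list of 12 genes held H3K27 demethylases, H3K27 acetyltransferases, and subunits or partners of PR-DUB, a complex that removes ubiquitin from histone H2A. Counts higher and lower were 3 and 5 in KO FBS against WT FBS and 1 and 2 in KO paused against WT paused cells. They were 4 and 2 in KO paused against KO FBS and 5 and 0 in WT paused against WT FBS cells. Without WT FBS replicate 1 these were 7 and 4 in WT paused against WT FBS and 3 and 4 in KO paused against WT paused cells. The shares of all genes were then 27.8% and 31.1%, and 34.7% and 30.5%. Per cell edgeR and limma called 0 in either genotype comparison, where 4 in FBS and 2 when paused had an unadjusted edgeR p below 0.05, and 4 were lower in KO pausing and 7 in WT pausing. Kdm6a, an H3K27 demethylase, was lower in KO cells in FBS (log2 −0.29 ± 0.09) and when paused (−0.23 ± 0.09, edgeR adjusted p = 0.0127 and 0.0427). Ep300, an H3K27 acetyltransferase, was lower in KO paused than in WT paused cells (−0.37 ± 0.07, edgeR adjusted p = 0.000999), and its pausing effects differed by −0.54 ± 0.10 (adjusted p = 0.00374). Genes of other complexes that hold Rbbp4 or Rbbp7 were lower in KO cells for 13 of 20 in FBS and 12 of 20 when paused, and 2 were higher in each. Without WT FBS replicate 1, 5 were higher when paused, where 34.7% of all genes were. Per cell 2 were lower in each genotype comparison, with 1 higher in FBS and 2 when paused, and 15 were lower in KO pausing and 17 in WT pausing. Smarca1, a remodelling ATPase of the NURF complex, was lower by −2.02 ± 0.13 and −2.15 ± 0.13 (edgeR adjusted p = 1.26e-07 and 7.88e-08), and Sap30 of the Sin3 complex by −1.28 ± 0.15 and −1.42 ± 0.15 (adjusted p = 1.29e-05 and 7.64e-06).

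Of the 10 E2F, pocket protein and Myc regulators, which include known regulators of Ezh2 and Eed, 7 were lower and 2 higher in KO FBS against WT FBS cells and 4 lower and 2 higher in KO paused against WT paused cells. Per cell 2 were lower and 1 higher in FBS, and 1 lower and 1 higher when paused. E2f4 was lower by −1.40 ± 0.15 and −1.05 ± 0.15 in these comparisons (edgeR adjusted p = 7.82e-06 and 9.94e-05), and E2f2 by −1.72 ± 0.22 and −1.67 ± 0.23 (adjusted p = 2.81e-05 and 6.4e-05). The pocket protein genes Rbl1 and Rbl2 were also lower in both, and E2f1, E2f5 and Rb1 were lower in FBS, with paused values of −0.02 ± 0.11, −0.15 ± 0.08 and 0.07 ± 0.15 (edgeR adjusted p = 0.913, 0.137 and 0.708). Mycn was higher in KO cells, by 0.90 ± 0.20 and 0.87 ± 0.20 (edgeR adjusted p = 0.00192 and 0.00275), as was E2f3, by 0.37 ± 0.09 and 0.25 ± 0.10 (adjusted p = 0.0046 and 0.0449). Myc was not called, at −0.84 ± 0.34 and −0.81 ± 0.34 (edgeR adjusted p = 0.0511 and 0.065). On pausing, Rbl1 rose and E2f4 and E2f2 fell in WT cells (0.65 ± 0.16, −0.55 ± 0.15 and −0.71 ± 0.21), and Rb1 and E2f1 rose and E2f2 fell in KO cells (0.57 ± 0.15, 0.35 ± 0.10 and −0.66 ± 0.23). The difference of pausing effects called 0 of the 10 with edgeR (1 at an unadjusted p below 0.05) and 0 with DESeq2. Without WT FBS replicate 1 it called 2 as higher, where 24.3% of all genes were.

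Developmental genes known to carry H3K27me3 in embryonic stem cells moved in both directions with genotype and with pausing. Of 50 such genes, 36 passed the filter on low counts, so a gene that is high in only 1 group entered through that group. In KO FBS against WT FBS cells 18 were higher and 8 lower, in KO paused against WT paused cells 14 and 6, in KO paused against KO FBS cells 9 and 15, and in WT paused against WT FBS cells 6 and 12. Per cell the counts higher and lower were 16 and 10, 17 and 6, 4 and 18, and 2 and 23 in the same order. Olig2, a neural lineage factor, averaged 34.4 ± 3.18 CPM in KO paused against 0.0903 ± 0.156 in WT paused cells, and 22.2 ± 2.91 CPM in KO FBS against 0.0636 ± 0.056 in WT FBS cells (SD, n = 3 each). Gata4, an endoderm factor, averaged 0.547 ± 0.106 in KO FBS against 4.75 ± 0.815 CPM in WT FBS cells (log2 −3.07 ± 0.23, edgeR adjusted p = 4.57e-07). Gata3, a trophoblast factor, averaged 0.958 ± 0.302 in KO paused against 8.34 ± 1.54 CPM in KO FBS cells (−3.16 ± 0.26, edgeR adjusted p = 2.57e-06). The mark itself was not measured in these libraries, and the part of PRC2 RNA in these differences was not tested.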

How the data were processed

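The authors deposited raw read counts per gene symbol for 12 polyadenylated RNA libraries, with 92 ERCC spike-in rows, and log2 values scaled to cell number, per the file headers and the labels. Tools named in the submitters' processing notes are edgeR 3.32.1, Subread 1.5.0, featureCounts and Trim Galore 0.4.0, with the build mm10. The sources used here do not give the aligner, annotation or strand setting, and reads of overlapping or near-identical genes are uncertain.

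Tests of the counts used edgeR 4.0.16 under R 4.3.3 (4 group means over 12 samples, robust quasi-likelihood test, filter at a minimum count of 10 and a minimum total of 15, Benjamini-Hochberg adjustment over 15281 genes, threshold 0.05). Relative values use TMM over genes, and per-cell values use TMM over ERCC rows. Counts limit the precision of Phf19 most, at 104 to 381 per library. Alternatives were other size factors, no filter, DESeq2 1.42.0, 2-group fits, the plain ERCC total, a replicate block, leaving out each library, and, added after seeing the data, limma 3.58.1 on the deposited log2 values. The relative edgeR test of WT pausing was tried on simulated counts with the same dispersion for every gene. The per-cell fits, the difference of pausing effects, DESeq2, limma and the replicate block were not tried in this way. Positions are from GENCODE vM21 (GRCm38), and promoters from RefSeq, matched for 10 of 10 genes.

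The genes, lists and tests were chosen with earlier results of these data known. Named besides the 10 genes and Mettl3 are, per related list and comparison, genes out of the 3 with the lowest p in each direction, all E2F-list genes, the 3 nearest in pattern to Ezh2, Ezh1, Eed and Suz12, and, for their overlap, 4 partners on the opposite strand.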

Additional observations from a re-analysis of the deposited data

Results flagged for a closer look

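Aebp2 differed between the genotypes in its response to pausing. The KO pausing effect minus the WT effect was −0.45 ± 0.12 (relative log2 scale, edgeR adjusted p = 0.023), where 8.26% of all genes were called in this direction. The 3 KO paused libraries, at 117 to 135 CPM, lay below all other libraries, at 155 to 183 CPM. The call was lost without KO paused replicate 3, WT paused replicate 3, KO FBS replicate 1 or KO FBS replicate 3 (edgeR adjusted p from 0.0543 to 0.0654), and over all 16 alternatives the value ran from −0.49 to −0.39. Per cell it was −0.16 ± 0.45 (edgeR adjusted p = 0.864).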

How the results depend on the processing

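Ezh2, Eed and Rbbp4 in both genotype comparisons and in WT pausing, Jarid2 and Aebp2 in KO paused against WT paused cells, and Aebp2 in KO pausing kept direction and call under all 17 relative alternatives each. WT FBS replicate 1 and, per cell, the spread of the KO FBS spike-in set the main limits, and depth limits Phf19. The cause of the shifts below was not tested.

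Fitting only the groups compared called 2769 of 13600 genes in WT paused against WT FBS cells relative and 2916 of 14951 in KO FBS against WT FBS cells per cell. Of the 10 genes, that fit called 1 higher in KO pausing relative, where it called 9358 of 14977 genes in either direction. It called 3 lower in KO FBS against WT FBS cells relative, beside 7089 of 14951 genes in either direction, and 0 per cell. In KO paused against WT paused cells per cell it called 3 higher, beside 6417 of 14364 genes in either direction. No filter left 1 higher in KO paused against WT paused cells relative, where 7879 of 21288 genes were called in either direction. With limma on the deposited log2 values, 4434 of 14495 genes and 2 of the 10 genes lower were called in KO pausing. In KO paused against WT paused cells limma called 2 of the 10 higher and 5065 of 14495 genes in either direction.

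Same-numbered samples were not treated as pairs in the main fits. Correlations of their deviations were all positive, from 0.0465 to 0.27, and were not over 0.1 for every pair in any comparison. These values do not settle whether same-numbered samples share a part of their spread. The replicate block raised the number of genes called in every comparison, in KO pausing relative from 6518 to 7090. With the replicate block the per-cell counts moved: of the 10 genes 10 were lower in KO pausing, 1 higher and 3 lower in KO FBS against WT FBS, and 4 higher in KO paused against WT paused cells, and 1970 genes were called in the difference of pausing effects. All genes called in the first 3 under the block were 9363, 6327 and 7105 of 15281. Relative counts of the 10 genes under the block were 5 lower in KO FBS against WT FBS cells and 4 lower in each pausing comparison. All genes called there in either direction were 9227 in KO FBS against WT FBS cells, 7090 in KO pausing and 6361 in WT pausing, of 15281.

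Leaving out each library in turn, genes called ranged from 4171 to 9219 in WT pausing and from 1819 to 6463 in the difference of pausing effects relative, and from 4112 to 10459 in KO pausing and from 397 to 1718 in that difference per cell. Relative calls ranged from 5071 to 9349 in KO pausing, 7725 to 10723 in KO FBS against WT FBS and 6720 to 10203 in KO paused against WT paused cells. Per cell these 2 genotype comparisons ranged from 3300 to 5294 and from 3608 to 6293. Of the 10 genes, relative counts higher and lower ranged from 0 to 1 and 3 to 7 in WT pausing, 0 to 1 and 1 to 4 in KO pausing, 0 to 1 and 3 to 5 in KO FBS against WT FBS, and 0 to 5 and 0 to 2 in the difference. Counts higher ranged from 1 to 4 in KO paused against WT paused cells. Per cell, 2 to 10 were lower in KO pausing, 0 to 1 higher and 0 to 3 lower in KO FBS against WT FBS, and 0 to 3 higher in KO paused against WT paused cells.

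No called value changed sign. Uncalled values near 0 did. Aebp2 in WT pausing was −0.0122 with other size factors, −0.00531 with DESeq2, −0.0173 in the 2-group fit, and −0.0707 to 0.0369 leaving out libraries. Ezh1 in KO pausing was −0.00765 and −0.00937 with other size factors and DESeq2. Mtf2 in KO FBS against WT FBS cells per cell was −0.0217 with limma. Leaving out libraries, relative values ran from −0.0871 to 0.62 for Ezh1 in WT pausing, −0.0723 to 0.146 for Jarid2 and −0.114 to 0.0092 for Mtf2 in KO FBS against WT FBS, −0.253 to 0.119 for Phf19 in KO paused against WT paused cells, and −0.0876 to 0.0444 for Suz12 and −0.608 to 0.122 for Ezh1 in the difference of pausing effects. Per-cell values in KO FBS against WT FBS cells ran from −0.373 to 0.0849 for Suz12, −0.345 to 0.111 for Rbbp7, −0.168 to 0.361 for Jarid2, −0.223 to 0.238 for Mtf2 and −0.0256 to 0.401 for Aebp2. Those for Aebp2 ran from −0.138 to 0.149 in KO paused against WT paused cells and from −0.36 to 0.067 in the difference, and those for Ezh1 in the difference from −0.30 to 0.442.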
